A study of Rattus norvegicus with 4 samples.

Results

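The Egr2 locus was described here as a window of 2 Mb of the rat genome (rn6, chr20:21500001-23500000), in Hi-C contact maps of Schwann cells that did or did not overexpress an antisense RNA of the Egr2 promoter. The window holds 200 of the 277880 bins of 10 kb on the numbered chromosomes and X, and 188 of its bins had enough contacts to be used. Egr2 lies near 22.45 to 22.46 Mb, and the 3 bins of chr20:22440001-22470000 served as the viewpoint, from which contacts with the rest of the window, the rest of chromosome 20 and the other chromosomes were read. Window and viewpoint were set by position and not by any measured value.

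Hi-C, which counts pairs of DNA segments that were ligated because they lay close together in the nucleus, was run on 4 libraries, 2 of Lenti-GFP and 2 of Lenti-AS. All 4 came from primary Schwann cells of rat sciatic nerve, grown in DMEM with serum, forskolin and heregulin-β1, and all were infected with lentivirus in the presence of polybrene for 48 hours at 2 UFC per cell. Lenti-AS cells received a virus that overexpresses the Egr2 antisense RNA from the pLVX-DsRed-Express2-N1 vector, and Lenti-GFP cells a control virus made from pLVX-AcGFP1-N1. The groups therefore differ in the insert and in the fluorescent protein, no uninfected library was analysed here, and effects of these differences cannot be told apart. The labels call the samples independent but do not say whether they came from separate cultures or animals, so the p-values measure the spread between these samples only.

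EGR2, also called Krox20, is the zinc finger transcription factor that Schwann cells need to make and keep myelin. Its gene is switched on by distal enhancers and is repressed after nerve injury, when Schwann cells turn into repair cells. Promoter antisense RNAs are transcribed against the direction of their gene and can bring chromatin-modifying complexes to it. In contact maps, boundaries are places that few contacts cross, and loops are pairs of segments that meet more often than their distance predicts.

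The RefSeq promoter of Egr2 (GRCr8, chr20:21054392-21054691, minus strand) is shown because the antisense RNA is made from this promoter region and the viewpoint was placed on the gene. Capitals mark the only match, on either strand, to GCCAT, the core recognised by YY1, a factor known for binding at promoters that form loops.

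Egr2 promoter: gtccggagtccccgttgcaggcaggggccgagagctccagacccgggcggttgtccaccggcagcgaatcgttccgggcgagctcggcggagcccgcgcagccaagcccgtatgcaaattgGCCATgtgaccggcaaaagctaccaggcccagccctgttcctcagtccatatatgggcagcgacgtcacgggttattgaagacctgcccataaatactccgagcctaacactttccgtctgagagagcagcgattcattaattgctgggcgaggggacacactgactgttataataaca

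GCCAT occurs in 41.2% of the 33469 promoters of the same length. The sequence holds 3 matches to GANTC and 0 to GATC, the motifs cut by the enzymes of the Arima kit used for these libraries, and such matches occur in 61.3% and 46.9% of promoters. It holds no match to GCGTGGGCG, the site that EGR proteins bind, which is found in 0.544% of promoters. Its GC content is 59.0%, against a median of 51.7%. In the GRCr8 gene order, Egr2 stands between Ado, a thiol dioxygenase gene, and Nrbf2, an autophagy gene, with Zfp365, Rtkn2 and Arid5b beyond Ado, and Jmjd1c, which encodes a JmjC-domain protein, and Reep3 beyond Nrbf2. No neighbouring gene was assigned to a bin, because these coordinates belong to another build than the contact maps.

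The libraries held 94956821 and 110770015 contacts in Lenti-GFP and 74811640 and 70488877 in Lenti-AS, so counts were scaled by each library's contacts at the same distance before groups were compared. The share of contacts between chromosomes ranged from 12.6% to 13.0% over the 4 libraries.

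The viewpoint had more contacts within the window than its distances predict, in all 4 libraries. From 20 kb outward it made 1564 and 1770 contacts in Lenti-GFP and 1288 and 1195 in Lenti-AS. Divided by the count expected from the same distances on the same library's genome, this was 1.71 and 1.67 in Lenti-GFP (mean 1.69 ± 0.0283, SD, n = 2) and 1.81 and 1.77 in Lenti-AS (1.79 ± 0.0272, n = 2). Both Lenti-AS libraries lay above both Lenti-GFP libraries. With 2 libraries against 2, the smallest two-sided p that an exact permutation test can give is 0.333, which is the value for this and for every other single value whose groups do not overlap. Such a separation, in either direction, was seen for 55.8% of all sets of 3 neighbouring bins in the genome when contacts up to 1 Mb away on both sides were summed, and with Lenti-AS higher for 27.8%.

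The excess over the distance expectation was larger toward lower coordinates, and the difference between the groups was larger toward higher coordinates, though the sides were not tested against each other. On the lower side the ratio of observed to expected contacts was 2.11 and 2.07 in Lenti-GFP and 2.16 and 2.14 in Lenti-AS. On the upper side it was 1.30 and 1.27 in Lenti-GFP and 1.47 and 1.41 in Lenti-AS. The group means were 2.09 ± 0.0288 and 2.15 ± 0.0132 on the lower side and 1.29 ± 0.0276 and 1.44 ± 0.0409 on the upper side (SD, n = 2 each). The groups did not overlap on either side, as was the case for 49.7% of all such sets of bins on the lower and 49.8% on the upper side, and with Lenti-AS higher for 24.3% on each.

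**Figure D1:**
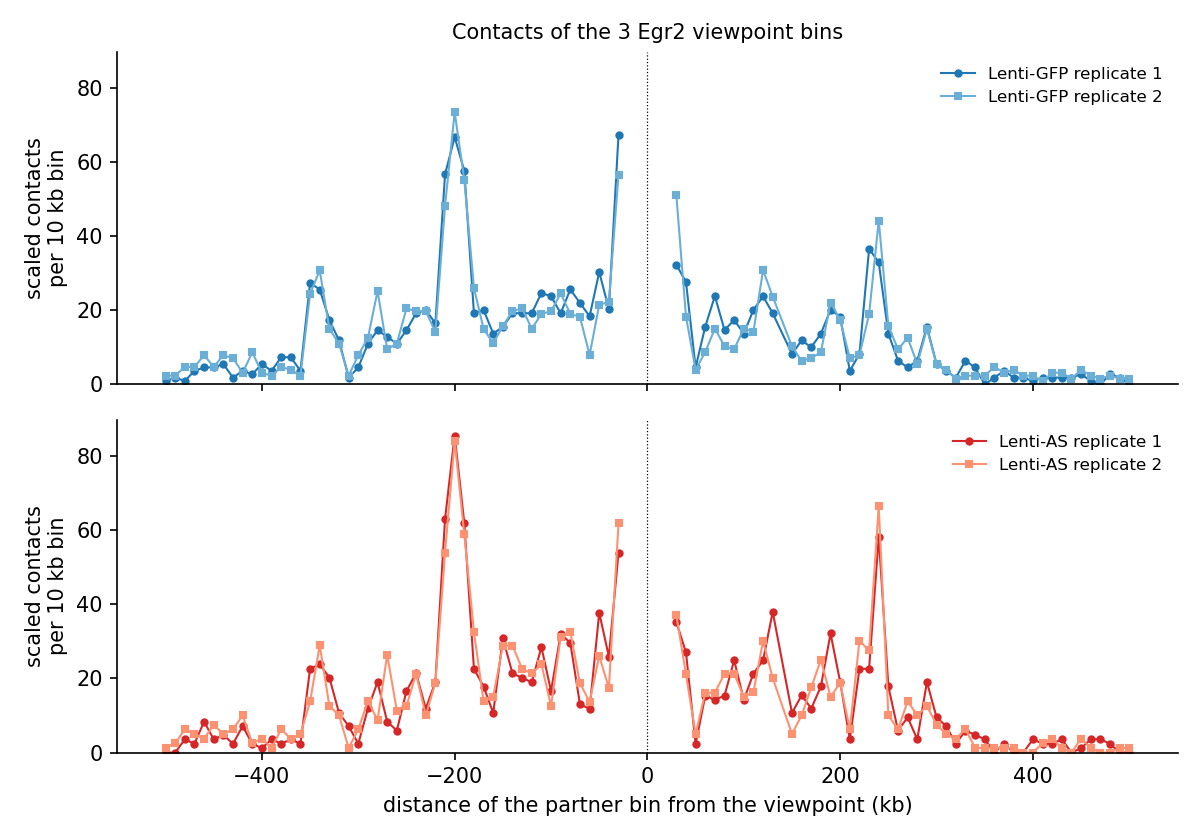
Contacts of the 3 Egr2 viewpoint bins with each 10 kb bin up to 500 kb away, scaled by each library's contacts at the same distance, against the distance of the partner bin in kb, with 1 line per library (Lenti-GFP in the upper panel, Lenti-AS in the lower). The peaks 200 kb below and 240 kb above the viewpoint are higher in both Lenti-AS libraries, and the peak 340 kb below overlaps between the groups. Over the genome, the groups did not overlap for 35.2% of sets of 3 by 3 bins at these distances.

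The upper side took 38.6% and 38.3% of the viewpoint's window contacts in Lenti-GFP and 40.8% and 40.1% in Lenti-AS, a difference of 2.03 percentage points. The 3 viewpoint bins did not share this difference equally. For the bin chr20:22440001-22450000, the share of contacts 20 to 500 kb away that pointed to the upper side was 25.6% and 22.5% in Lenti-GFP and 27.0% and 21.1% in Lenti-AS, which overlap. For chr20:22450001-22460000 it was 28.4% and 28.8% in Lenti-GFP and 30.8% and 30.4% in Lenti-AS. For chr20:22460001-22470000 it was 56.0% and 56.2% in Lenti-GFP and 60.9% and 60.3% in Lenti-AS.

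The middle and upper viewpoint bins thus lay on opposite sides of a switch in contact direction that was present in every library, and both pointed upward more often in both Lenti-AS libraries. For the upper bin the difference was 4.48 percentage points. A difference of at least that size in either direction was found at 17.1% of 203668 bins, and groups that do not overlap at 34.6% of them, with Lenti-AS higher at 17.2%. For the middle bin the difference was 2.00 percentage points, and 53.2% of these bins differed at least as much. For the lower bin it was -0.047 points, and 98.8% differed at least as much. The bins next to the viewpoint did not share a direction. The share was 62.0% and 62.6% in Lenti-GFP and 66.8% and 63.0% in Lenti-AS at chr20:22470001-22480000, without overlap, and at chr20:22480001-22490000 the groups overlapped. Below the viewpoint it was lower in both Lenti-AS libraries, with 32.0% and 29.7% in Lenti-GFP and 28.2% and 27.8% in Lenti-AS at chr20:22430001-22440000, and 34.0% and 33.3% against 32.9% and 32.5% at chr20:22420001-22430000.

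The switch in direction coincided with a boundary. The insulation score, the log2 level of contacts crossing a bin within 200 kb relative to other bins, had a local minimum at chr20:22460001-22470000 in all 4 libraries. It was -0.65 and -0.51 in Lenti-GFP and -0.50 and -0.54 in Lenti-AS, so the groups overlapped. Its prominence, the depth of the minimum against its surroundings, was 1.11 and 0.929 in Lenti-GFP and 0.995 and 1.06 in Lenti-AS. In the summed libraries the prominence of 1.02 was higher than that of 53.5% of the 8069 boundaries in the genome.

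**Figure D2:**
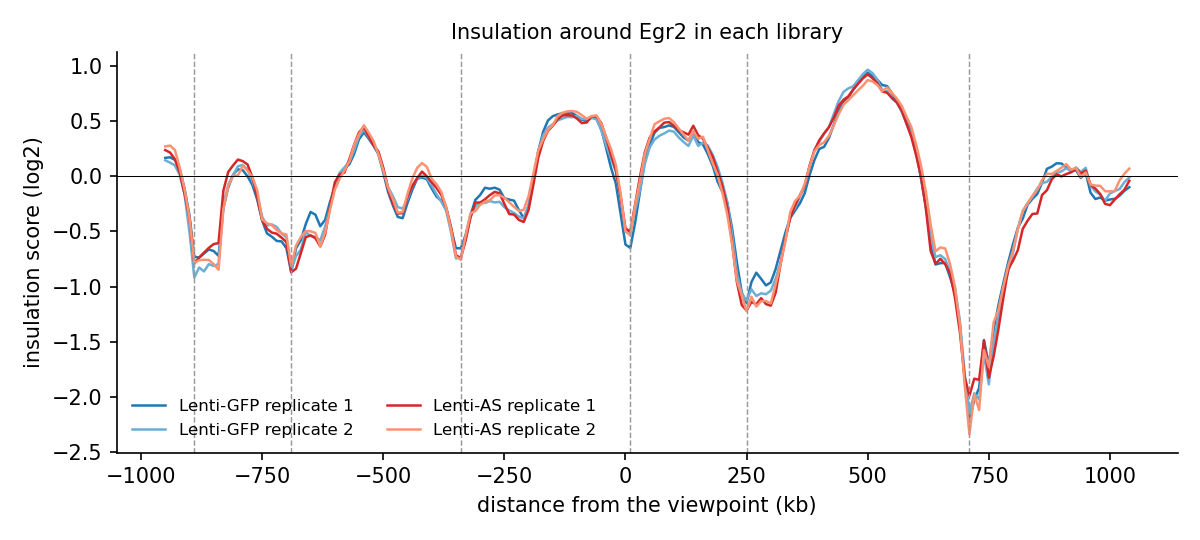
Insulation score (log2) of each 10 kb bin of the window against distance from the viewpoint in kb, with 1 line for each of the 4 libraries and dashed lines at boundaries of the summed libraries with a prominence of at least 0.5. The minimum in the upper viewpoint bin lies between -0.65 and -0.50 in the 4 libraries, and the deepest minimum of the window lies near its upper end.

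The nearest boundaries in the summed libraries were chr20:22240001-22250000 on the lower side, with a prominence of 0.208, and chr20:22700001-22710000 on the upper side, with a prominence of 1.73. The former was called in Lenti-GFP replicate 1 and Lenti-AS replicate 1 only, and the latter in all 4 libraries. The strongest boundary of the window, chr20:23160001-23170000, had a prominence of 3.09, above 93.7% of boundaries.

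No bin of the window differed in insulation by limma after Benjamini-Hochberg adjustment (0 of 200 bins, against 0.000834% of bins in the genome). At an unadjusted p under 0.05, 8 of the 200 bins differed, against 5.58% in the genome. This count depended on the score, with 35 (5 higher and 30 lower in Lenti-AS) for a window of 500 kb, against 7.76% in the genome, and 14 (7 and 7) without balancing, against 21.8%. A single bin among the 8, chr20:22480001-22490000, had a higher score in Lenti-AS, and the other 7 lay between 22670001 and 22770000, around the upper boundary, with lower scores. The differences at the 3 viewpoint bins were 0.10, 0.07 and 0.06 (limma adjusted p = 0.910, 0.928 and 0.936), toward weaker insulation in Lenti-AS, and these took the opposite sign when the window for the score was 100 kb or 500 kb.

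Boundaries with a prominence of at least 0.5 divided the surroundings of Egr2 into a lower block of 340 kb (chr20:22120001-22460000), an upper block of 230 kb (chr20:22470001-22700000) and a next upper block of 450 kb (chr20:22710001-23160000). These blocks were drawn after the values had been seen, so their contacts are given as a description. Within the lower block, observed over expected was 1.54 and 1.53 in Lenti-GFP and 1.52 and 1.50 in Lenti-AS. Within the upper block it was 1.59 and 1.54 in Lenti-GFP and 1.57 and 1.54 in Lenti-AS. Between these blocks it was 1.30 and 1.36 in Lenti-GFP and 1.39 and 1.32 in Lenti-AS. Contacts within the upper block and contacts across the Egr2 boundary overlapped between the groups. Contacts within the lower block did not overlap and were lower in both Lenti-AS libraries. Within the next upper block, observed over expected was 1.72 and 1.70 in Lenti-GFP and 1.76 and 1.78 in Lenti-AS, without overlap. How often such blocks separate over the genome was not computed.

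The lower and the next upper block, which are not neighbours, met more often than their distance predicts. Observed over expected was 1.53 and 1.50 in Lenti-GFP and 1.44 and 1.43 in Lenti-AS, without overlap. The upper and the next upper block, which are neighbours, met less often than predicted, at 0.620 and 0.637 in Lenti-GFP and 0.645 and 0.614 in Lenti-AS. The viewpoint itself met the upper block at 1.46 and 1.35 in Lenti-GFP (mean 1.40 ± 0.0744, SD, n = 2) and 1.73 and 1.67 in Lenti-AS (1.70 ± 0.0377, n = 2), with no overlap. It met the lower block at 2.35 and 2.26 in Lenti-GFP and 2.47 and 2.45 in Lenti-AS, also with no overlap. It met the next upper block at 1.31 and 1.43 in Lenti-GFP and 1.34 and 1.24 in Lenti-AS, with overlap. The share over the genome was not computed for contacts of 3 bins with such blocks. For contacts of 3 bins up to 1 Mb away, the groups did not overlap for 49.7% of sets below and 49.8% above.

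**Figure D3:**
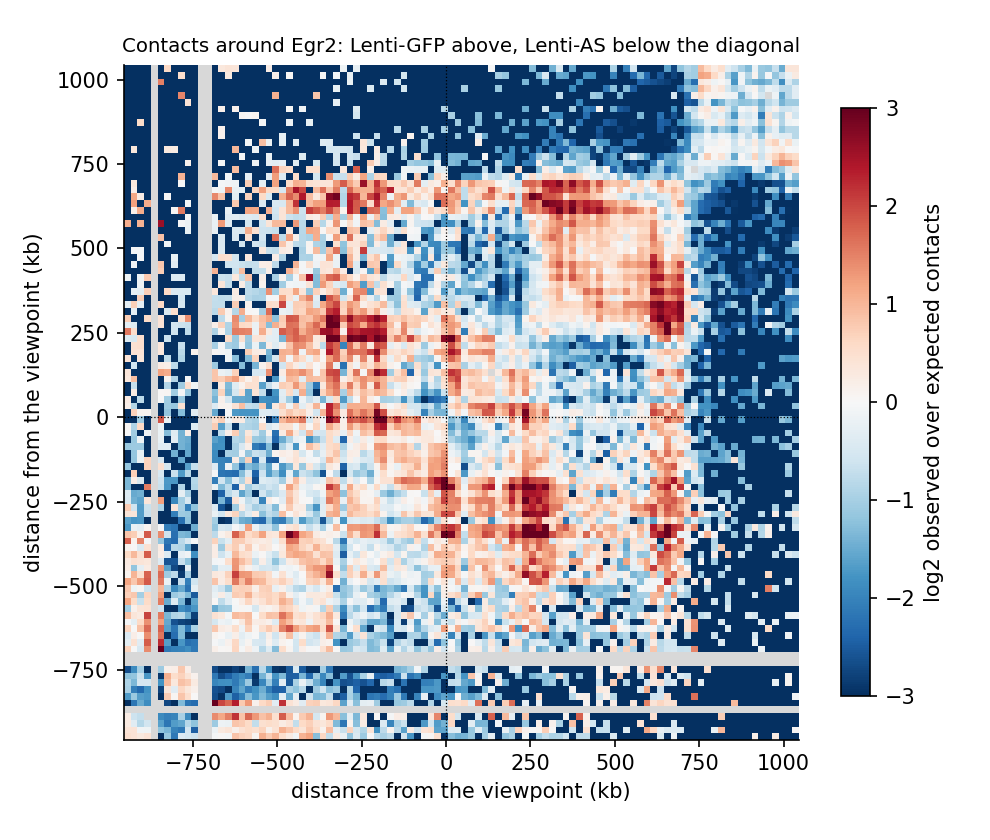
Contacts between 10 kb bins of the window, averaged over neighbouring bins, with Lenti-AS above and Lenti-GFP below the diagonal. The title printed on the picture names these sides the other way round. Both axes are in kb from the Egr2 viewpoint. The colour gives log2 observed over expected contacts, and bins that were not used are in grey. The blocks around the viewpoint and the spots where it meets its partners 200 kb below and 240 kb above appear on both sides of the diagonal.

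The viewpoint's strongest partners, ranked in the sum of the 4 libraries without regard to group, were a bin 200 kb below it, a bin 240 kb above it and a bin 340 kb below it. The partner at chr20:22250001-22260000 met the viewpoint 13.5 times as often as its distance predicts, with 66.7 and 73.4 scaled contacts in Lenti-GFP and 85.5 and 84.1 in Lenti-AS. The partner at chr20:22690001-22700000, just below the upper boundary, did so 10.4 times as often, with 32.9 and 44.2 scaled contacts in Lenti-GFP and 58.2 and 66.5 in Lenti-AS. The partner at chr20:22110001-22120000, on a boundary, did so 8.66 times as often, with 25.6 and 30.7 scaled contacts in Lenti-GFP and 23.8 and 28.9 in Lenti-AS. The nearest of these partners on each side were higher in both Lenti-AS libraries, and the farthest overlapped between the groups. How often such sums with a single partner bin separate over the genome was not computed. For sets of 3 by 3 bins at these distances the groups did not overlap for 35.2%.

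The other named partners were weaker. Observed over expected was 4.48 at chr20:22170001-22180000, 4.34 at chr20:22210001-22220000 and 4.06 at chr20:22740001-22750000. Of these, the second had 19.2 and 19.7 scaled contacts in Lenti-GFP and 21.4 and 21.3 in Lenti-AS, and the other two overlapped between the groups.

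Read over sets of 3 bins, which were set after the values had been seen, the viewpoint met chr20:22240001-22270000 at 10.7 and 10.4 times the expected count in Lenti-GFP and 12.4 and 11.6 times in Lenti-AS. It met chr20:22680001-22710000 at 5.93 and 5.63 times in Lenti-GFP (mean 5.78 ± 0.215, SD, n = 2) and 7.04 and 7.42 times in Lenti-AS (7.23 ± 0.272, n = 2). It met chr20:22100001-22130000 at 7.39 and 7.36 times in Lenti-GFP and 6.99 and 5.80 times in Lenti-AS. The groups did not overlap for any of these 3 sets, with Lenti-AS higher at the former pair of partners and lower at the farthest. Over all such sets of 3 by 3 bins at these distances with at least 40 contacts, the groups did not overlap for 35.2%, with Lenti-AS higher for 17.3%.

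The partners also met each other across the viewpoint. The partner 200 kb below and the partner 240 kb above met at 11.8 and 14.4 times the expected count in Lenti-GFP and 11.9 and 13.3 times in Lenti-AS. The partner 340 kb below and the partner 240 kb above met at 14.0 and 14.4 times in Lenti-GFP and 14.1 and 14.1 times in Lenti-AS. The partners on the lower side met each other at 4.23 and 3.43 times in Lenti-GFP and 3.56 and 3.35 times in Lenti-AS, and no library had a loop called between them. All of these overlapped between the groups. The sets that include the viewpoint did not overlap, but they differed in both directions, and 35.2% of all sets at their distances did not overlap either. Whether the differences of these pairs differ from each other was not tested.

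Over blocks of 50 kb, 6 of the 21 with at least 40 contacts did not overlap between the groups, 5 of them higher and 1 lower in Lenti-AS. This is 28.6% of blocks, against 36.9% for blocks around all sets of 3 bins in the genome (18.2% with Lenti-AS higher), and the median log2 difference of the 21 was 0.03. The block 200 to 250 kb above the viewpoint had 95.1 and 93.9 scaled contacts in Lenti-GFP and 125 and 140 in Lenti-AS, a log2 difference of 0.49. The block 300 to 350 kb above, with 18 and 16 contacts in Lenti-GFP and 20 and 14 in Lenti-AS, differed by 0.51. The blocks 150 to 200 kb above, 100 to 150 kb below and 150 to 200 kb below differed by 0.43, 0.38 and 0.17. The only block lower in both Lenti-AS libraries lay 350 to 400 kb above, with 11 and 21 contacts in Lenti-GFP and 5 and 3 in Lenti-AS, and had the largest difference in size of the 21 (log2 difference -1.45).

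Loops were called in each library between pairs of bins 50 kb to 2 Mb apart, at a q-value of up to 0.05. The window held 47 and 44 loops in Lenti-GFP and 31 and 34 in Lenti-AS. Over all chromosomes there were 89859 and 104542 loops in Lenti-GFP and 69971 and 65976 in Lenti-AS, which differed in the same direction. The Lenti-AS libraries were also the shallower ones, and after all libraries were thinned to the same depth the window held 33 and 33 loops in Lenti-GFP and 29 and 34 in Lenti-AS. On the whole of chromosome 20 the thinned libraries held 1770 and 1659 loops in Lenti-GFP and 1642 and 1769 in Lenti-AS. Loops with an end in a viewpoint bin numbered 11 and 9 in Lenti-GFP and 8 and 9 in Lenti-AS, or 12 and 6 and 8 and 9 after thinning. Both counts overlapped between the groups at equal depth.

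Over the 4 libraries, 84 pairs of the window were called in at least 1 library, 14 of them in all 4 and 47 in a single library. Of these, 16 had an end in a viewpoint bin, 10 toward the lower and 6 toward the upper side. The viewpoint bins chr20:22450001-22460000 and chr20:22460001-22470000 had 7 each and chr20:22440001-22450000 had 2. The 4 viewpoint pairs called in every library joined chr20:22450001-22460000 to the 3 bins of chr20:22240001-22270000, and chr20:22460001-22470000 to chr20:22690001-22700000.

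The strongest of them, chr20:22250001-22260000 with chr20:22450001-22460000, had 38 and 57 contacts in Lenti-GFP and 34 and 25 in Lenti-AS. This was 20.5 times the expected count in the sum. Scaled to distance these were 34.7 and 45.0 in Lenti-GFP and 40.3 and 31.4 in Lenti-AS, which overlap. The partner at chr20:22690001-22700000 was met by both the upper and the middle viewpoint bin, with 99 and 71 contacts in the sum, 15.2 and 11.4 times the expected count.

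**Figure D4:**
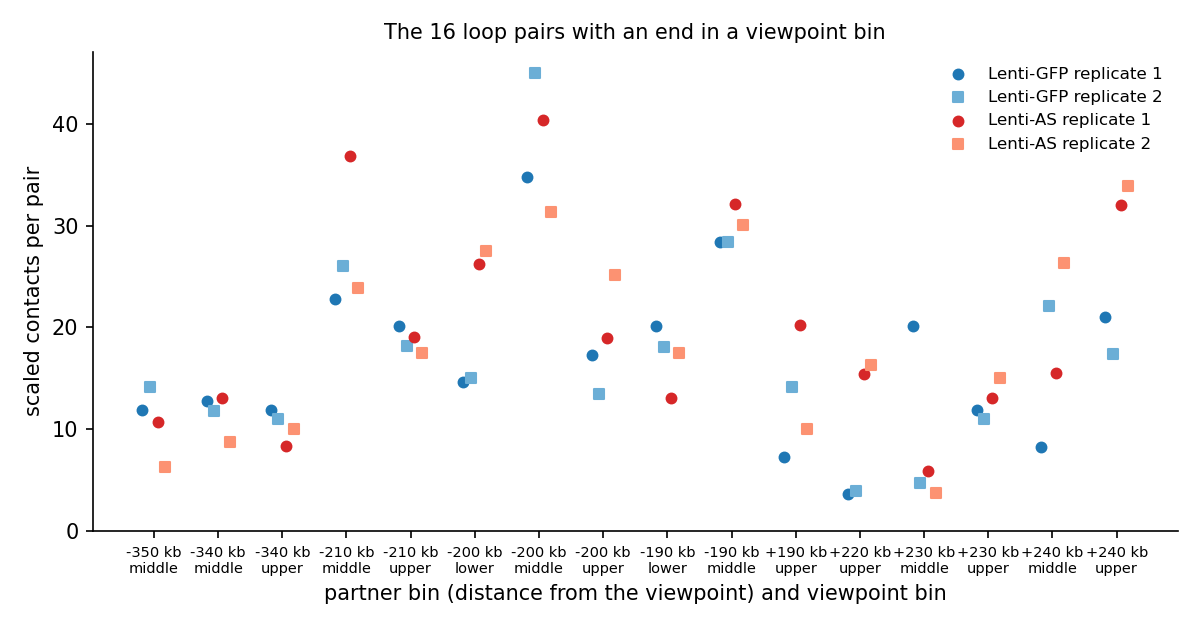
Contacts of the 16 loop pairs with an end in a viewpoint bin, scaled by each library's contacts at the same distance, with 1 point per library, ordered by the distance of the partner bin from the viewpoint in kb. The pair of the upper viewpoint bin with the partner 220 kb above has 3.65 and 3.95 scaled contacts in Lenti-GFP and 15.4 and 16.4 in Lenti-AS. It is among the 16 only because both Lenti-AS libraries called it, and its edgeR adjusted p was 0.945.

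No loop pair of the window passed the test by edgeR after Benjamini-Hochberg adjustment (0 of 84, against 0.0126% of the 205917 pairs in the genome), and none passed by DESeq2. At an unadjusted p under 0.05, 10 of the 84 differed by edgeR, against 3.53% in the genome, 6 higher and 4 lower in Lenti-AS. By DESeq2 1 differed, against 0.462% in the genome. With offsets that also hold the contacts of both bins the balance turned, to 2 higher and 4 lower of 84, against 3.14% in the genome. A pair entered this test when at least 1 library called it as a loop, and 8 of the 10 were called in no library of the group where they were lower, so they entered only through the group where they were higher and the counts are a description. By the threshold of the study's methods (unadjusted p under 0.05 and a log2 change over 1), 6 of the 84 differed, against 2.89% in the genome, and 2 of these had an end in a viewpoint bin. All 6 had entered only through the group where they were higher. The same threshold was passed by 55 of the 1483 window pairs at 20 kb to 2 Mb that averaged 5 or more contacts per library, called as loops or not, against 4.02% of such pairs in the genome. These 2 were chr20:22460001-22470000 with chr20:22670001-22680000 and chr20:22450001-22460000 with chr20:22680001-22690000, whose ends are adjacent bins.

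The former had 4 and 5 contacts in Lenti-GFP and 13 and 13 in Lenti-AS, a log2 difference of 2.03 (edgeR adjusted p = 0.945), and it was tested only because both Lenti-AS libraries called it. The latter had 22 and 6 contacts in Lenti-GFP and 5 and 3 in Lenti-AS, a log2 difference of -1.28 (edgeR adjusted p = 0.949). Lenti-GFP replicate 1 alone was high there, and without it the log2 difference was 0.04. These neighbouring pairs therefore gave opposite directions, and the second of them rested on a single library.

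The other viewpoint pairs with an unadjusted p under 0.05 were higher in Lenti-AS. The pair chr20:22460001-22470000 with chr20:22690001-22700000 had 23 and 22 contacts in Lenti-GFP and 27 and 27 in Lenti-AS, or 19.2 ± 2.60 against 33.0 ± 1.30 after scaling (mean ± SD; log2 difference 0.78, edgeR adjusted p = 0.949). The pair chr20:22250001-22260000 with chr20:22440001-22450000 had 16 and 19 contacts in Lenti-GFP and 22 and 22 in Lenti-AS (log2 difference 0.85, edgeR adjusted p = 0.949), and it too entered only through Lenti-AS. The former pair was called in all 4 libraries. Among the pairs with lower values in Lenti-AS, chr20:22100001-22110000 with chr20:22450001-22460000 had 13 and 18 contacts in Lenti-GFP and 9 and 5 in Lenti-AS (log2 difference -0.61), and chr20:22260001-22270000 with chr20:22440001-22450000 had 22 and 23 against 11 and 14 (log2 difference -0.32). Neither of these had an unadjusted p under 0.05 (edgeR adjusted p = 0.949 for both). Loop calls that followed the groups ran in both directions, and how often calls do so over the genome was not computed. The pair at 22250001 and 22440001 and the pair at 22460001 and 22670001 were called in both Lenti-AS libraries and in no Lenti-GFP library, and the pair at 22260001 and 22440001 and the pair at 22110001 and 22460001 in both Lenti-GFP libraries and in no Lenti-AS library.

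Of the 16 viewpoint pairs, 9 had a higher and 7 a lower value in Lenti-AS, with a median log2 difference of 0.21, against -0.09 for all pairs in the genome. The median was 0.44 for the 6 pairs toward the upper side and -0.11 for the 10 toward the lower side. In 9 of the 16 the groups did not overlap, against 32.9% of all pairs. Among these 9 were all the pairs named above as called in both libraries of a single group and in no library of the other. Those pairs entered only through the group where they were higher, so the 9 and the medians are a description. The viewpoint pairs held more contacts than others, with a median of 70.5 over the 4 libraries, against 35 in the window and 15 in the genome. The part of this depth in the share of pairs that differ was not tested. In data simulated for all 205917 pairs of the genome, 15.5% of pairs with a 4-fold change were recovered at the adjusted threshold, and the rate for pairs with as many contacts as those of the viewpoint was not computed.

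At 100 kb, where a pair holds more contacts, 1 of 129 pairs of the window passed the test by edgeR, against 0.328% of pairs in the genome. It joined chr20:22700001-22800000 to chr20:22800001-22900000, inside the next upper block and outside the viewpoint, with 639 and 758 contacts in Lenti-GFP and 563 and 596 in Lenti-AS. After scaling these were 586 and 601 against 665 and 744, and the pair was higher in Lenti-AS (log2 difference 0.24, edgeR adjusted p = 0.0476). It did not pass by DESeq2, with offsets that hold the contacts of both bins, or when Lenti-GFP replicate 1, Lenti-GFP replicate 2 or Lenti-AS replicate 2 was left out. In bins of 50 kb, 0 of 361 window pairs passed by edgeR, against 0.0744% in the genome, and 33 had an unadjusted p under 0.05, against 7.75%.

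The bin with Egr2, chr20:22400001-22500000, took part in 16 of these pairs, and none passed the test by edgeR, nor by DESeq2. Their log2 differences ranged from -0.50 to 0.46, with 9 higher and 7 lower in Lenti-AS. An unadjusted p under 0.05 was found for 2 of the 16, against 8.85% of pairs in the genome, and both were lower in Lenti-AS. With chr20:23000001-23100000 there were 80 and 102 contacts in Lenti-GFP and 41 and 48 in Lenti-AS, or 73.4 and 80.2 against 48.8 and 60.2 after scaling (log2 difference -0.50, edgeR adjusted p = 0.300). With chr20:22000001-22100000 there were 152 and 176 contacts in Lenti-GFP and 87 and 101 in Lenti-AS (log2 difference -0.27, edgeR adjusted p = 0.541). These far partners lay outside the lower and upper blocks.

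Per bin, the middle and upper viewpoint bins were among the most connected of the genome at 20 kb to 2 Mb. In the summed libraries, 80.3%, 99.5% and 96.9% of used bins had fewer such contacts than the lower, middle and upper viewpoint bin. Over 2 Mb away they were among the least connected, as 6.87%, 4.65% and 1.19% of bins had fewer. These ranks run over bins of all chromosomes, and a shorter chromosome offers fewer partner bins over 2 Mb away. Ranks within chromosome 20 were not computed. With other chromosomes the 3 bins lay nearer the middle, with 49.5%, 77.5% and 27.6% of bins below them.

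None of the viewpoint bins passed the test in these classes by edgeR or by DESeq2. At 20 kb to 2 Mb the lower bin had 398 and 343 scaled contacts in Lenti-GFP and 406 and 420 in Lenti-AS, the middle bin 598 and 605 against 630 and 577, and the upper bin 480 and 493 against 525 and 537. The log2 differences were 0.16, 0.01 and 0.12 (edgeR adjusted p = 0.249, 0.978 and 0.343), and the lower bin alone had an unadjusted p under 0.05, as did 18.8% of bins in the genome. The lower and upper bins were higher in both Lenti-AS libraries and the middle bin overlapped. Within the bin the log2 differences were 0.36, 0.14 and 0.22 (edgeR adjusted p = 0.454, 0.765 and 0.689), and over 2 Mb away they were -0.44, -0.11 and -0.19 (edgeR adjusted p = 0.50, 0.920 and 0.883), with no unadjusted p under 0.05 among these 6, against 11.4% of bins in the genome within the bin and 10.0% over 2 Mb away.

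Summed over the 3 bins, contacts over 2 Mb away were 137 and 154 in Lenti-GFP and 81 and 85 in Lenti-AS, or 126 and 120 against 97.1 and 107 after scaling. The groups did not overlap, which was also so for 46.0% of all such sets of 3 bins, with Lenti-AS lower for 24.6%. Within the bin the scaled sums were 218 and 262 in Lenti-GFP and 268 and 294 in Lenti-AS, and here 43.4% of sets did not overlap, with Lenti-AS higher for 21.2%. Whether reads of the Lenti-AS virus, which carries the sequence of the antisense RNA, were counted in these sums was not tested. Both Lenti-AS libraries were lower over 2 Mb away and higher in the window, and the counts behind the far contacts were small.

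**Figure D5:**
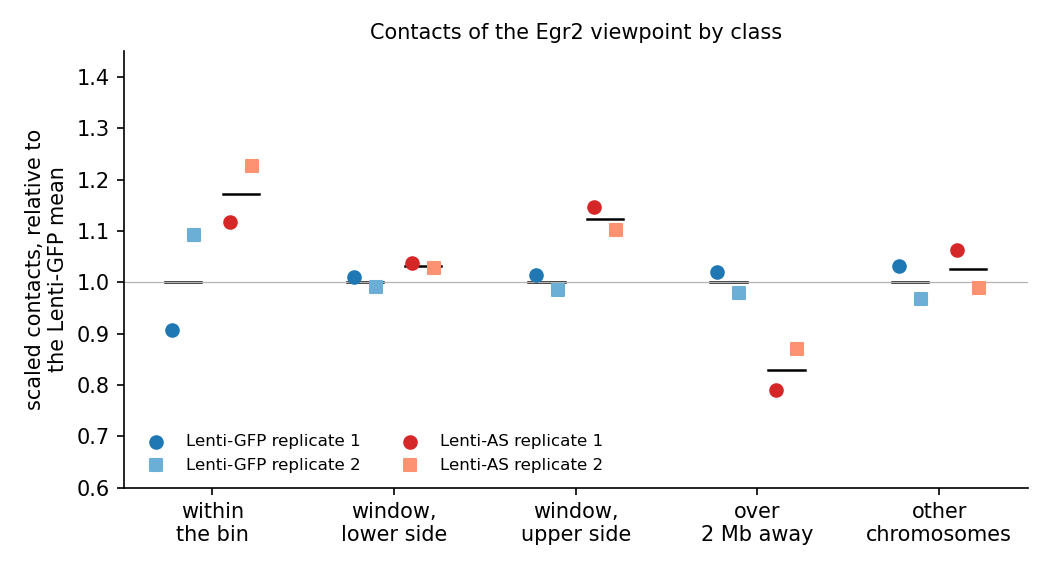
Scaled contacts of the 3 viewpoint bins by class, relative to the Lenti-GFP mean, with 1 point per library and a bar at each group mean (vertical axis from 0.6). The sides of the window were scaled by contacts at the same distance, and the other classes by each library's total in the class. The Lenti-AS libraries lie above the Lenti-GFP libraries within the bin and on both sides of the window, below them over 2 Mb away, and among them for contacts with other chromosomes.

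Across the window, 5 of 194 bins passed the test by edgeR at 20 kb to 2 Mb, against 4.42% of bins in the genome, and 0 by DESeq2. The count fell when any of the 4 libraries was left out, most without Lenti-AS replicate 2, and so did the share of bins in the genome. The bins chr20:22780001-22790000 (log2 difference 0.24) and chr20:22820001-22830000 (0.28) were higher in Lenti-AS, and chr20:21500001-21510000 (-0.31), chr20:22700001-22710000 (-0.24) and chr20:22900001-22910000 (-0.28) were lower. The bin at 22700001 is the upper boundary itself, with 522 and 489 scaled contacts in Lenti-GFP and 428 and 426 in Lenti-AS. Within the bin, 1 of 186 passed by edgeR, against 0.263% in the genome. It was chr20:23080001-23090000, with 50.9 and 47.5 scaled contacts in Lenti-GFP and 89.4 and 76.3 in Lenti-AS (log2 difference 0.76, edgeR adjusted p = 0.0385), and it did not pass by DESeq2 or when any of the 4 libraries was left out. Over 2 Mb away, 0 of 189 passed by edgeR or DESeq2, against 0.0848% in the genome, and 10 had an unadjusted p under 0.05 by edgeR, 1 higher and 9 lower in Lenti-AS, against 10.0% in the genome. By DESeq2 there was 1, against 0.875%. The lowest p in each direction were at chr20:22550001-22560000 (log2 difference -0.73, edgeR adjusted p = 0.117) and chr20:23310001-23320000 (0.53, edgeR adjusted p = 0.401).

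The viewpoint made 276 and 304 contacts with other chromosomes in Lenti-GFP and 230 and 201 in Lenti-AS, or 258 and 242 against 266 and 248 after scaling. The groups overlapped. The Lenti-AS virus carries the sequence of the antisense RNA, and whether reads of it were counted at the viewpoint was not tested. The log2 differences of the 3 bins were -0.01, 0.13 and -0.05 (edgeR adjusted p = 0.991, 0.845 and 0.966), none had an unadjusted p under 0.05 and none passed by DESeq2.

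As a share of the viewpoint's contacts from 20 kb outward, contacts with other chromosomes made up 13.6% (95% Wilson interval 12.2 to 15.2) and 13.3% (12.0 to 14.8) in Lenti-GFP and 14.1% (12.5 to 15.9) and 13.3% (11.7 to 15.1) in Lenti-AS. These intervals cover counting error only. Over all used bins the share was 17.4% to 18.1%, so the viewpoint had a lower share in each library. The 1004 partner bins on other chromosomes were almost all met in a single library, with 3 met in 2 and none met in more. By chromosome, the summed contacts ranged from 0.441 times the expected count on X and 0.687 times on chromosome 1 to 1.43 times on chromosome 18, where the 4 libraries held 24, 10, 13 and 6 contacts.

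Across the window, 0 of 194 bins passed the test for contacts with other chromosomes by edgeR or DESeq2, against 0.113% by edgeR in the genome. By edgeR, 15 had an unadjusted p under 0.05, against 9.03% in the genome, 2 higher and 13 lower in Lenti-AS. By DESeq2 there were 2, against 0.777% in the genome. The lowest p was at chr20:22580001-22590000, in the upper block, with 148 and 170 scaled contacts in Lenti-GFP and 101 and 128 in Lenti-AS (log2 difference -0.49, edgeR adjusted p = 0.156). The lowest p among higher bins was at chr20:23170001-23180000, beside the strongest boundary (log2 difference 0.36, edgeR adjusted p = 0.439).

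The first eigenvector at 100 kb, which separates a chromosome into its 2 compartments, was negative from the lower end of the window to 23200000 and positive above it in all 4 libraries. Its sign was set by contacts with other chromosomes, with which it correlated only weakly (Pearson's r across bins of 0.126 to 0.135), so no compartment was named from it. At the bin with Egr2 it was -1.10 and -1.13 in Lenti-GFP and -0.99 and -0.91 in Lenti-AS, a difference of 0.17 (limma adjusted p = 0.440). No bin of the window passed the test by limma (0 of 20, against 0.0% in the genome). An unadjusted p under 0.05 was found for 3, against 11.1% in the genome, all closer to 0 in Lenti-AS. They were the bin with Egr2, chr20:22500001-22600000 (difference 0.16) and chr20:22900001-23000000 (0.20). With the replicate number as a block the 3 became 1, against 10.6% in the genome. After quantile normalization of the eigenvector they became 4, against 8.54%. When a single library was left out, the count and its direction depended on which library it was.

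In the authors' balanced matrices, which merge the libraries of each group and so carry no replicate spread, the upper side held 40.3% of the viewpoint's window signal in Lenti-GFP and 43.0% in Lenti-AS. The signal between the lower and the upper block relative to the mean within them was 0.549 and 0.548.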

How the data were processed

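Hi-C was measured in 4 libraries of rat Schwann cells, grouped by the titles and treatments in the labels. Per the labels, the authors mapped reads with HiC-Pro to rn6, from 150 bp paired reads, and deposited raw contact counts between 10 kb bins for each library. The authors also deposited balanced signal of matrices merged by group, read here for a single check. The edgeR and DESeq2 tests used the raw counts, and the limma tests used scores computed from these counts after balancing them here.

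A bin was used if its contacts within the chromosome reached 0.25 of the median. Expected counts are the mean of used bin pairs at the same distance. HiCDCPlus, OnTAD and Juicer, named in the methods, were replaced: loops (50 kb to 2 Mb, q up to 0.05) were called per library by a negative binomial regression on distance and the contacts of both bins, insulation (200 kb window, boundary prominence of at least 0.2) and 100 kb eigenvectors were computed per library from counts balanced here. Counts were tested with edgeR 4.0.16 (quasi-likelihood), with offsets for contacts at the same distance for pairs and TMM for bins, and with DESeq2 1.42.0 as an alternative. Scores were tested with limma 3.58.1 (R 4.3.3), and single values with exact two-sided permutation tests (Python 3.11.15, numpy 2.4.6, scipy 1.17.1). Benjamini-Hochberg adjustment ran over the genome, with a threshold of 0.05. Pairs of 100 kb bins needed a mean count of at least 10. Scripts were tested on simulated data.

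Named were pairs and bins past the threshold, the 3 viewpoint pairs of lowest p in each direction, the 6 partner bins of highest observed over expected (expected count of at least 10, no neighbours), the viewpoint bins, otherwise the lowest p in each direction, and the nearest boundaries. The members, lists and tests were chosen with earlier results of these data known. Gene lists were not tested, since no gene positions in rn6 were used. Libraries of a group differed by more than sampling noise (chi-square per bin of 1.21 in Lenti-GFP and 1.10 in Lenti-AS). Alternatives changed the offsets, filters, tool, thresholds, bin size, score window, balancing, depth, viewpoint bins and replicates.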

Additional observations from a re-analysis of the deposited data

How the results depend on the processing

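For the comparisons, 108 recomputed values did not change or changed little. Counts of calls were equal or close to the main count, including counts that stayed at 0. Differences moved by less than the replicate spread. The exceptions follow. The 6 window loop pairs past the study's threshold became 1 with DESeq2, 55 when all pairs of 20 kb to 2 Mb with a mean count of at least 5 were tested, and 2 to 6 without each replicate (2 without Lenti-AS replicate 1 and 2 without Lenti-AS replicate 2). The 1 window pair at 100 kb became 0 with offsets for both bins, 0 with a mean count of at least 1, 0 with DESeq2, 0 in 50 kb bins, and 0 to 1 without each replicate (1 without Lenti-AS replicate 1). The 1 bin called within the bin became 0 with DESeq2 and 0 without each replicate. The 5 bins called at 20 kb to 2 Mb became 0 with DESeq2 and 0 to 4 without each replicate (1 without Lenti-GFP replicate 1, 2 without Lenti-AS replicate 1, 0 without Lenti-AS replicate 2). The cause was not tested.

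The viewpoint's log2 difference in observed over expected contacts of the window was 0.09, ranged from 0.07 to 0.11 without each replicate, and was 0.16, 0.0016 and 0.14 for its lower, middle and upper bin alone. The difference in upper share of 2.03 percentage points ranged from 1.65 to 2.41 without each replicate and was -0.10, 0.911 and 4.37 for these bins alone. The difference in loops of the window of -13 was -3 at q up to 0.01, -17.5 at q up to 0.1, -1.5 in thinned libraries, and -14.5 to -11.5 without each replicate. That of loops at the viewpoint of -1.5 was 0.5 at q up to 0.01 and -2.5 to -0.5 without each replicate.

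Named features that had passed the adjusted threshold kept their direction in every setting, though they did not pass in all of them. Among named features that had not passed, the difference took the opposite sign as follows. For the loop pair of 22450001 and 22680001 the log2 difference ranged from -2.01 to 0.040 without each replicate (0.040 without Lenti-GFP replicate 1). For contacts with other chromosomes it ranged from -0.24 to 0.19 at 22440001 (0.19 without Lenti-AS replicate 1), from -0.11 to 0.33 at 22450001 (-0.11 without Lenti-AS replicate 1) and from -0.18 to 0.073 at 22460001 (above 0 without Lenti-GFP replicate 1 and without Lenti-AS replicate 2). At 20 kb to 2 Mb it ranged from -0.060 to 0.068 at 22450001 (-0.060 without Lenti-AS replicate 1). Over 2 Mb away it ranged from -0.25 to 0.069 at 22450001 (0.069 without Lenti-GFP replicate 2) and from -0.60 to 0.14 at 22460001 (above 0 without Lenti-GFP replicate 1 and without Lenti-AS replicate 1). Insulation differences at the 3 viewpoint bins were -0.12, -0.16 and -0.11 with a window of 100 kb and -0.057, -0.059 and -0.049 with 500 kb, and at 22460001 ranged from -0.0047 to 0.13 without each replicate (-0.0047 without Lenti-GFP replicate 1).

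The correlation of the deviations of same-numbered libraries was -0.0051 for loop pairs and 0.0078 for 100 kb pairs. It was -0.0044 for contacts with other chromosomes and 0.054 at 20 kb to 2 Mb. These low values do not settle whether the replicate numbers pair the samples. With the replicate number as a block the window counts were 4 loop pairs past the study's threshold and 1 pair at 100 kb. They were 1 bin within the bin and 6 bins at 20 kb to 2 Mb, and the block changed no other call of the window. Over the genome, called bins at 20 kb to 2 Mb went from 11290 to 15980 with the block, and called 100 kb pairs from 1020 to 1497.

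Changes of 4-fold were simulated in a sample of the genome's pairs or bins, leaving out those with the fewest contacts. They were recovered in 15.5% of the changed loop pairs, 100% of the changed 100 kb pairs and 100% of the changed bins for contacts with other chromosomes. Recovery of smaller changes was not simulated. With 2 libraries a group, the exact test of a single value does not go below 0.333.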
